A study of Mus musculus with 4 samples.

Results

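The interferon response genes are described here in sorted mouse regulatory T cells, as 33 genes out of the 52636 in the count files. They were listed by symbol as genes that type I or type II interferon is known to induce. The list did not use their values in these libraries, but earlier results of these data were known when it was chosen. RNA was sequenced from CD4+CD62L+CD25bright regulatory T cells of C57BL/6 mice 7 weeks old, in 2 libraries per genotype, replicates 2 and 3 of each. Both genotypes carry the Vav1R63W knock-in allele of Vav1, a signalling protein downstream of the T cell receptor. The second genotype is labelled Vav1R63WThemis1-T-/-, here shortened to the Themis1-T-/- label. It adds a deletion, in T cells, of Themis1, a T cell receptor signalling protein encoded by Themis. Mice with normal Vav1, or lacking Themis1 alone, are not analysed here, so the comparison is between 2 mutant genotypes. The agent that removes Themis1, and whether animals were pooled, are not given in the sources used here. No label says that the replicates of a genotype came from separate mice, so p-values measure the spread between these libraries, which may be technical.

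Interferons are secreted proteins that warn cells of infection. Type I interferons and interferon gamma bind separate receptors, whose JAK kinases phosphorylate STAT proteins; STAT2 joins another STAT and IRF9 in a complex that binds the interferon-stimulated response element (ISRE) of target promoters, and STAT dimers bind the gamma-activated site (GAS). The induced genes detect foreign nucleic acid, block viral translation, degrade viral RNA or attack the vacuoles of intracellular parasites, and some of them restrain the pathway itself. Resting T cells keep a basal level of many of these genes, and interferon is known to affect regulatory T cell number and function.

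A sequence feature that the choice of genes did not use was searched in promoters. RefSeq windows of build GRCm38.p6, from 250 bases before to 50 bases after a transcription start, were found for 25 of the 33 genes. The ISRE letters searched were GAAANNGAAA on either strand, and 15 of the 25 genes (60.0%) held them, against 3.99% of 27025 genes with such windows. The GAS letters, TTCNNNGAA, which read the same on both strands, were in 5 of the 25 genes, against 9.55% of all genes. Bst2, Igtp and Oas1a held both. The windows below surround the ISRE letters nearest to the start in 6 genes that lie on either side of the comparison, with the letters in capitals, overlapping copies joined, and the strand of the gene read 5′ to 3′.
Ifit1, chr19:34640779-34640838, plus strand: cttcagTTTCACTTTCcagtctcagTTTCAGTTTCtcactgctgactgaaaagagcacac
Ifit3, chr19:34583382-34583441, plus strand: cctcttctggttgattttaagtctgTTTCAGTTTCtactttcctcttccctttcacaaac
Isg15, chr4:156200850-156200909, minus strand: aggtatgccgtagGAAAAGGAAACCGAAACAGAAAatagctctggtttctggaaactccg
Oas1a, chr5:120907526-120907564, minus strand: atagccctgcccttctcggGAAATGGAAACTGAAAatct
Bst2, chr8:71537562-71537621, minus strand: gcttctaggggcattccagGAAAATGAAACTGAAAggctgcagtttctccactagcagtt
Igtp, chr11:58199497-58199555, plus strand: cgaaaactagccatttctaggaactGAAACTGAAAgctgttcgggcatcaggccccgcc
The ISRE letters ended 75 bases before the start in Ifit1, 112 in Ifit3, 56 in Isg15, 4 in Oas1a, 114 in Bst2 and 24 in Igtp. A match is a description of letters and shows no binding. Ifit1 and Isg15 had higher mean levels under the Themis1-T-/- label and Ifit3, Oas1a, Bst2 and Igtp lower ones. The 6 genes were picked to include both directions, so their signs say nothing about genes with these letters in general. Isg15 and Igtp had overlapping groups.

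The libraries held 13963670 to 15953194 reads assigned to genes. Themis, the targeted gene, had 283 and 97 reads in Vav1R63W replicates 2 and 3, and 685 and 0 under the Themis1-T-/- label. For replicate 2 this count contradicts the label, so every direction below is between labels. The counts cover the whole gene, so reads from outside the deleted part and a label that belongs to another library cannot be told apart, and libraries with that label may not share 1 genotype. Themis1-T-/- labelled replicate 3 had reads in 10809 genes, the others in 11722 to 12049. The regulatory T cell markers Foxp3, Il2ra, Ikzf2 and Ctla4 had at least 1298 reads in every library. Of 39 markers of other blood cells, 28 had no read in any library or count column. Csf1r, of the monocyte list, had none in the unstranded column but 45 and 72 reads in Vav1R63W libraries and 216 and 247 under the Themis1-T-/- label when the strand columns were added. Of the exon bases of Csf1r 15.1% are shared with Hmgxb3 on the other strand, so reads within those bases cannot be told apart. No unstranded read was counted on the other exon bases of Csf1r. The monocyte list summed to 735 to 1003 CPM unstranded, all from Ctss, with Lyz2, Cd68, Adgre1, Itgam and Fcgr1 at 0 reads in every column. Plasmacytoid dendritic cells are a main source of type I interferon. Their 7 listed markers summed to 4.50 and 4.65 CPM in Vav1R63W libraries and to 60.4 and 73.5 CPM under the Themis1-T-/- label, mostly from Ccr9 and Ly6d. Siglech, Spib, Klk1 and Cox6a2 of that list had no read in any library, and Tcf4 had 81 reads in Themis1-T-/- labelled replicate 2 only. The sum thus rests on few of the 7 markers and does not by itself show these cells. The part of the monocyte and plasmacytoid markers in the results below was not tested.

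Interferon response genes were expressed in all 4 libraries at levels that varied little in sum. The 33 genes together took 5505 and 5372 CPM (reads of a gene per megaread of gene reads) in Vav1R63W replicates 2 and 3, and 5145 and 4593 CPM under the Themis1-T-/- label. The group values of this sum were 5439 ± 94.5 and 4869 ± 391 CPM (SD, n = 2 each), and the groups did not overlap. Ifi27l2a, Ifi47 and Igtp made up 50.4% of it. Without those 3 genes the sum was 2690 and 2724 CPM against 2672 and 2131 CPM, so the lower value of the other 30 genes lay mainly in Themis1-T-/- labelled replicate 3. In these bulk samples fewer cells that express a gene and less RNA per cell cannot be told apart.

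The count filter kept 29 of the 33 genes, and 0 of them passed the test. Across all genes the edgeR quasi-likelihood test also called 0 of 10216 (0.0%), limma-voom called 0 (0.0%), and DESeq2 called 206 of 10748 (1.92%), of which 0 were among these genes. At an unadjusted p under 0.05 edgeR had 0 of the 29 genes, against 4.98% of all genes tested. By the same count limma-voom had 1, against 4.73% of all genes, and DESeq2 had 0, against 5.94%. The authors' deposited table gives an adjusted p for 28 of the genes and called 0, against 123 of 7865 genes (1.56%) in all. The median of the differences of mean log2 CPM, Themis1-T-/- labelled libraries minus Vav1R63W, was -0.23 over the 29 genes and -0.04 over all tested genes. It was negative for 20 of the 29, where 52.5% of all tested genes were negative. Without Themis1-T-/- labelled replicate 3, the median was -0.14, with 17 of 30 negative. The values of all genes without that library are not given here, so these cannot be set against the -0.04 and 52.5%. Each Themis1-T-/- labelled library was lower than each Vav1R63W library for 10 of the 29 genes, against 18.7% of all genes, and higher than each for 4, against 15.1%.

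**Figure D1:**
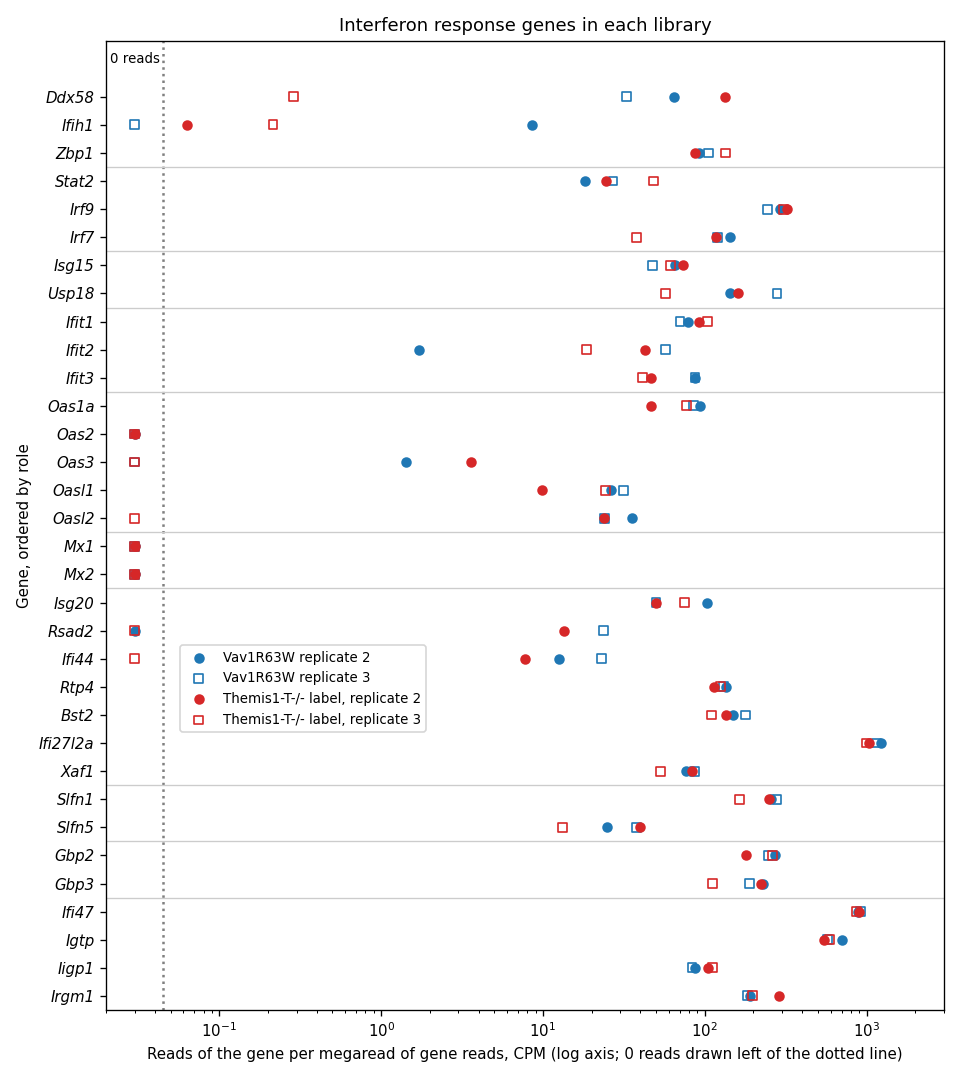
Level of each of the 33 interferon response genes in each of the 4 libraries, in CPM on a log axis, with genes grouped by role between grey lines and libraries with 0 reads drawn left of the dotted line. Points are single libraries (blue, Vav1R63W; red, Themis1-T-/- label; filled, replicate 2; open, replicate 3), and Ifi27l2a, Ifi47 and Igtp stand highest while Oas2, Mx1 and Mx2 have 0 reads in all 4.

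The sensors of foreign nucleic acid differed widely in how steady they were. Zbp1, a sensor of Z-form nucleic acid that can start cell death, was at 92.6 and 106 CPM in Vav1R63W replicates 2 and 3, and at 86.8 and 134 CPM under the Themis1-T-/- label. Its groups overlapped (log2 fold change 0.18 ± 0.35, SE). Ddx58, which encodes the RNA sensor RIG-I, had 902 and 470 reads in Vav1R63W libraries and 2114 and 4 under the Themis1-T-/- label. The highest and the lowest library thus carried the same label, 463-fold apart in CPM. The fitted log2 fold change of Ddx58 was 0.46 ± 2.16 (SE), and the difference of mean log2 CPM had the opposite sign, -2.60. Ifih1, which encodes the RNA sensor MDA5, had 120 and 0 reads against 1 and 3 and was not tested.

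Of the transcription factors, Irf9 was the most abundant and had the steadiest values. Irf9, the DNA-binding partner of the STAT complex, was at 292 and 244 CPM in Vav1R63W replicates 2 and 3 and at 324 and 305 CPM under the Themis1-T-/- label. Those groups did not overlap, and the log2 fold change was 0.26 ± 0.17 (SE). Stat2, the STAT protein of type I interferon signalling, was at 18.1 and 27.1 against 24.6 and 48.3 CPM, with overlapping groups. Irf7, which amplifies type I interferon production, was at 144 and 120.2 CPM in Vav1R63W cells and at 117 and 37.7 CPM under the Themis1-T-/- label. Only the last of these 4 values stood apart, and the log2 fold change of Irf7, -0.75 ± 0.60 (SE), was -0.17 without that library. The edgeR adjusted p was 1.000 for each of the 29 tested genes, these included.

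The ISG15 system had members of opposite sign. Isg15, a ubiquitin-like protein that is attached to other proteins during the response, was at 65.4 and 47.7 CPM in Vav1R63W libraries and at 73.5 and 61.3 CPM under the Themis1-T-/- label, which overlap. Usp18 removes ISG15 from proteins and blocks the type I interferon receptor. It was at 143 and 279.6 CPM in Vav1R63W replicates 2 and 3 and at 160.5 and 57.0 CPM under the Themis1-T-/- label. In CPM, replicates of both groups were further apart than the means, while in log2 CPM only those under the Themis1-T-/- label were. The log2 fold change was -0.95 ± 0.64 (SE). It was -0.41 without Themis1-T-/- labelled replicate 3, and -0.36 without Vav1R63W replicate 3. For Usp18 the strand columns together held 26.5% more reads than the unstranded column, and 4.44% of its exon bases are shared with Gm44148, on the other strand.

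The IFIT proteins bind viral RNA and block its translation, and their genes form a cluster on chromosome 19 in build GRCm38. Ifit3 (ENSMUSG00000074896, 34583531 to 34588731, plus strand) was at 86.5 and 87.0 CPM in Vav1R63W replicates 2 and 3 and at 46.6 and 41.3 CPM under the Themis1-T-/- label. All 4 values lay close to their group means, 86.8 ± 0.388 and 44.0 ± 3.76 CPM (SD, n = 2 each), and the groups did not overlap. Its log2 fold change, -0.96 ± 0.37 (SE), had the smallest p of the 29 genes (edgeR unadjusted p = 0.0549). It ran from -1.03 to -0.90 when each library was left out in turn. The authors' deposited table gives -0.80 with an adjusted p of 0.121.

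Ifit3b, a near-identical neighbour of Ifit3 and not one of the 33 genes, had 131 and 317 reads in Vav1R63W libraries and 4 and 7 under the Themis1-T-/- label. DESeq2 called Ifit3b (DESeq2 adjusted p = 0.0261) and edgeR did not (edgeR adjusted p = 0.958). Reads that match both copies equally are lost as multimapping, so the split between them is uncertain. The sum of both genes was 95.8 and 109 CPM against 46.9 and 41.8 CPM, again without overlap.

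Ifit1 had the opposite sign to Ifit3. Ifit1 (ENSMUSG00000034459, 34640871 to 34650009, plus strand) was at 78.3 and 70.3 CPM in Vav1R63W cells and at 91.5 and 104 CPM under the Themis1-T-/- label, a log2 fold change of 0.43 ± 0.31 (SE). Its groups did not overlap either. Ifit2 had 24 and 822 reads in Vav1R63W replicates 2 and 3 and 684 and 258 under the Themis1-T-/- label, so its lowest and highest libraries were both Vav1R63W.

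The OAS family makes the messenger that switches on RNase L, an enzyme that cuts viral and cellular RNA. Oas1a, a catalytic member, was at 93.5 and 85.0 CPM in Vav1R63W replicates 2 and 3 and at 46.8 and 76.8 CPM under the Themis1-T-/- label. The groups did not overlap, with a log2 fold change of -0.50 ± 0.41 (SE), which was -0.17 without Themis1-T-/- labelled replicate 2 and -0.93 without replicate 3. Oasl1, an OAS-like protein known to limit translation of Irf7, was at 26.2 and 31.6 against 9.84 and 24.4 CPM, also without overlap. Oasl2, another OAS-like protein, was at 35.4 and 24.0 against 23.9 and 0 CPM, groups that just failed to overlap. That 0 stands for 0 reads, where 381 were counted in the other library of that label. Oas3 had 20 and 0 reads against 57 and 0, and Oas2 had 0 reads in all 4 libraries.

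No read was assigned to Mx1 or Mx2, which encode dynamin-like GTPases that trap viral particles. With a floor of 3 reads, the depth allows a level of up to 0.188 to 0.215 CPM in a library, counting error only. The Mx2 gene model is annotated as a polymorphic pseudogene, and C57BL/6 mice are known to carry defective Mx genes.

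All 7 tested genes of the mixed group of antiviral effectors had a negative difference, where 52.5% of all tested genes did, and 0 passed. Ifi27l2a, a small membrane protein gene strongly induced by interferon, was at 1224 and 1155 CPM in Vav1R63W replicates 2 and 3 and at 1034 and 1001 CPM under the Themis1-T-/- label. Means were 1189 ± 48.7 and 1017 ± 23.6 CPM (SD, n = 2 each), without overlap. The log2 fold change was -0.20 ± 0.10 (SE) and lay between -0.22 and -0.19 whichever library was left out. Per length, Ifi27l2a was also the highest of the 33 genes, at 2383 CPM per kilobase of exon, with Ifi47 next at 360.2.

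Bst2, also called tetherin, holds budding virus at the cell surface. It was at 149 and 178 CPM in Vav1R63W replicates 2 and 3 and at 135 and 110.0 CPM under the Themis1-T-/- label, a log2 fold change of -0.40 ± 0.26 (SE). Its groups did not overlap, and they were 14.6 CPM apart at the nearest values. Rtp4, a receptor transporter protein, was at 136 and 131 against 114 and 125 CPM, also without overlap.

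Rsad2 and Ifi44 were at 0 reads in some libraries and well detected in others. Rsad2, which encodes viperin, had 0 and 341 reads in Vav1R63W libraries and 215 and 0 under the Themis1-T-/- label. Ifi44 had 177 and 331 against 124 and 0. For Rsad2 each label thus had an empty and a well covered library. Isg20, an exonuclease for RNA, was at 103 and 49.9 against 49.9 and 74.8 CPM, and Xaf1, a pro-apoptotic protein, at 76.3 and 86.9 against 83.2 and 53.3 CPM, both with overlap.

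Schlafen genes restrain T cell proliferation and viral replication. Slfn1, known for its part in T cell quiescence, was at 257 and 279 CPM in Vav1R63W replicates 2 and 3 and at 249 and 163 CPM under the Themis1-T-/- label. The groups did not overlap, and the log2 fold change, -0.36 ± 0.26 (SE), was -0.11 without Themis1-T-/- labelled replicate 3. Slfn5 was at 24.9 and 37.9 against 39.7 and 13.2 CPM, with both extremes under the Themis1-T-/- label.

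Guanylate-binding proteins attack the vacuoles of pathogens. Gbp2 was at 273 and 248 CPM in Vav1R63W replicates 2 and 3 and at 180.0 and 263 CPM under the Themis1-T-/- label. Gbp3 was at 230.4 and 188 against 221 and 111 CPM. A different library of the same label was low for each, and both groups overlapped. The sign of Gbp2 turned to a log2 fold change of 0.060 without Themis1-T-/- labelled replicate 2, and that of Gbp3 to 0.079 without replicate 3.

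The immunity-related GTPases, typical targets of interferon gamma, included Ifi47, the gene with the smallest ratio of highest to lowest library. Ifi47 (ENSMUSG00000078920) was at 884 and 917 CPM in Vav1R63W replicates 2 and 3 and at 893 and 869 CPM under the Themis1-T-/- label, a log2 fold change of -0.01 ± 0.11 (SE). Its highest and lowest libraries differed by 1.06-fold. Igtp was at 708 and 576 against 546 and 592 CPM, with overlap. Of its exon bases 8.01% are shared with Irgm2 on the same strand, so reads within those bases count as ambiguous.

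Iigp1 and Irgm1 lay on the other side of 0. Iigp1, which coats parasite vacuoles, was at 87.0 and 83.4 CPM in Vav1R63W replicates 2 and 3 and at 105 and 112 CPM under the Themis1-T-/- label. Means were 85.2 ± 2.52 and 109 ± 4.44 CPM (SD, n = 2 each), with a log2 fold change of 0.38 ± 0.28 (SE) and no overlap. Irgm1, a regulator of the other GTPases and of autophagy, was at 189.8 and 184 against 288 and 196 CPM. Its groups were 6.27 CPM apart at the nearest values, and the log2 fold change, 0.39 ± 0.24 (SE), was 0.11 without Themis1-T-/- labelled replicate 2.

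**Figure D2:**
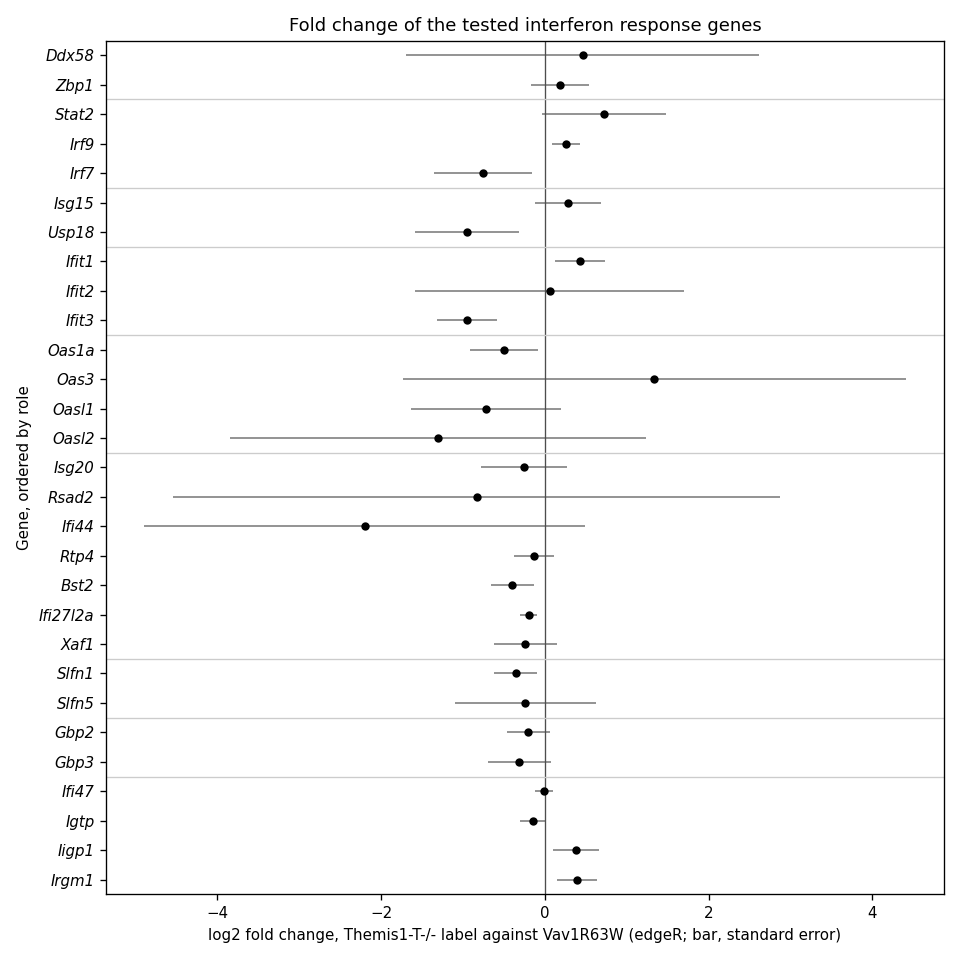
log2 fold change of each of the 29 tested genes, Themis1-T-/- labelled libraries against Vav1R63W, from the edgeR fit over all genes, with bars for the standard error and grey lines between roles. Ifit3 lies at -0.96 ± 0.37 and Ifit1 at 0.43 ± 0.31, while Rsad2, Oas3, Ifi44, Oasl2 and Ddx58 have standard errors above 2.

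Distances between replicates were set beside those between labels. Over the 29 genes the median absolute log2 difference was 0.25 between the Vav1R63W libraries and 0.63 between the Themis1-T-/- labelled libraries. Over all tested genes these medians were 0.65 and 0.84. The median absolute difference between the labels was 0.39 for the 29 genes and 0.57 for all. The difference between labels was larger than both replicate differences for 6 of the 29 genes (20.7%), Irf9, Ifit1, Ifit3, Bst2, Ifi27l2a and Iigp1, against 20.8% of all tested genes. The share for these genes was thus near that for all genes.

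When each library was left out in turn, the log2 fold change of 11 of the 29 genes turned sign. It kept its sign and stayed within 1.5 times its value for 4 genes, Ifit1, Ifit3, Ifi27l2a and Iigp1. Themis1-T-/- labelled replicate 3 had the lowest CPM of the 4 for 13 of the 29 genes (44.8%) and for 32.2% of all tested genes. Ties for the lowest value were not counted for it. That library had 0 reads for Oas3, Oasl2, Rsad2 and Ifi44. Across all tested genes 16.0% had at most 3 reads there, against 5.90% to 7.89% in the other libraries. A change from at most 3 reads to at least 100 within a label was seen for Rsad2 in Vav1R63W and for Oasl2, Rsad2 and Ifi44 in the other. The same pattern was found in 5.63% and 10.7% of all tested genes. Whether this library's lower number of detected genes contributes to the lower levels of Irf7, Usp18, Slfn1 and Gbp3 in it was not tested.

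**Figure D3:**
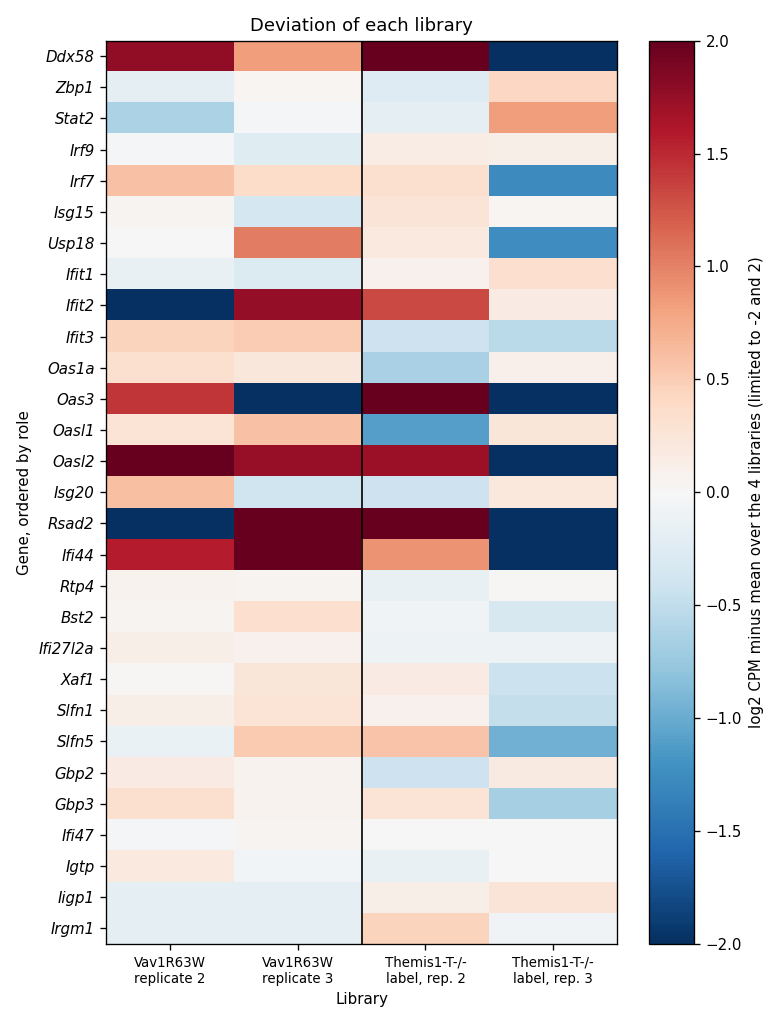
Deviation of each library from the mean log2 CPM of the gene over the 4 libraries, for the 29 tested genes in order of role, with red for higher, blue for lower and colours limited to -2 and 2. In CPM, without TMM, Themis1-T-/- labelled replicate 3 is the lowest of the 4 for 13 genes. Of these, Ifi27l2a and Ifi47 are lowest in another library on the TMM scale drawn here. The row of Ifi47, whose libraries differ by 1.06-fold in CPM, is nearly white.

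Genes at higher levels were steadier. Over the 13 genes whose mean reached 100 CPM the median absolute log2 difference between replicates was 0.22 for Vav1R63W and 0.50 under the Themis1-T-/- label, and over the 16 genes below that level it was 0.57 and 1.09. Over all tested genes the medians were 0.25 and 0.31 at the higher levels and 0.85 and 1.14 at the lower ones. For the higher 13 genes the median difference of mean log2 CPM was -0.20, with 10 negative, whereas all 2005 tested genes at that level had a median of 0.03 and were negative in 46.7%. For the lower 16 the median was -0.33, with 10 negative, against -0.10 and 53.9% of the 8211 tested genes there.

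**Figure D4:**
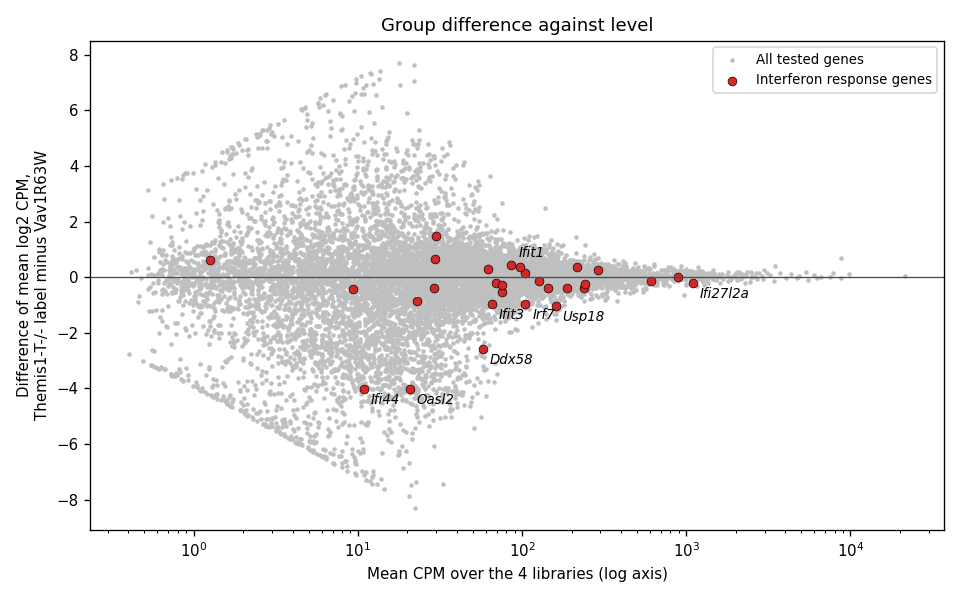
Difference of mean log2 CPM, Themis1-T-/- labelled libraries minus Vav1R63W, against the mean CPM over the 4 libraries on a log axis, with the 29 interferon response genes in red over all 10216 tested genes in grey. The scatter of both narrows as the level rises, and the median of the 13 red points at 100 CPM or more is -0.20.

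Other genes of the interferon pathway were taken from a fixed list of 90, of which 71 were tested and 0 passed the edgeR test (5 at an unadjusted p under 0.05, and 4 with limma-voom, where 4.98% and 4.73% of all genes had one). DESeq2 called 1 of them, Ifit3b, given above, where it called 1.92% of all genes. The median difference of mean log2 CPM of the 71 was -0.09, with 39 negative. The genes named below from each list had the smallest edgeR p of that list, so they do not stand for the whole list. No read was assigned to 9 of 10 interferon genes, and Ifng, the only other, had 34 and 1 reads in Vav1R63W libraries and 40 and 0 under the Themis1-T-/- label.

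Receptors and their kinases were negative for 7 of 8 tested genes, with a median of -0.27. Of all tested genes 52.5% were negative, with a median of -0.04. Tyk2, a kinase of the type I receptor, was at 49.6 and 48.1 CPM in Vav1R63W replicates 2 and 3 and at 14.98 and 21.3 CPM under the Themis1-T-/- label (log2 fold change -1.40 ± 0.63, SE). These groups did not overlap, and the edgeR adjusted p was 1.000. Jak1, the kinase shared by both receptors, was at 517 and 530.5 against 486 and 437 CPM, and Ifngr2, a chain of the interferon gamma receptor, at 91.8 and 84.1 against 77.4 and 19.8 CPM. Among 9 negative regulators, Ptpn6, which encodes the phosphatase SHP-1, was at 268 and 211 against 179 and 152 CPM. Cish was at 122 and 136 against 191 and 162 CPM, and Pias4 at 55.3 and 43.1 against 108 and 61.4 CPM. The strand columns of Cish together held 3643 and 4265 against 5914 and 4737 reads, the unstranded column 1711 and 1957 against 3053 and 2258. Of its exon bases 11.5% are shared with Gm17040 and Gm17041, on the other strand. For Ptpn6 the strand columns held 4714 and 3834 against 3609 and 2697 reads, the unstranded column 3753 and 3038 against 2856 and 2124.

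The route from sensors to interferon had 5 of 10 tested genes negative. Irf3, which switches on interferon genes, was at 76.9 and 92.4 CPM in Vav1R63W replicates 2 and 3 and at 153 and 97.7 CPM under the Themis1-T-/- label. Tmem173, which encodes STING, was at 708 and 668 against 603 and 590.2 CPM. Tlr7 was at 6.71 and 24.6 against 15.8 and 90.2 CPM. Of the further induced genes, 43 were tested, 21 were negative and the median was 0.01. Sp100, a nuclear body protein, was at 400 and 359 against 241 and 225 CPM (log2 fold change -0.68 ± 0.16, SE, edgeR adjusted p = 0.900). Irgm2, an immunity-related GTPase, was at 49.5 and 28.1 against 123 and 73.8 CPM (log2 fold change 1.37 ± 0.50, SE, edgeR adjusted p = 1.000). Dtx3l, a ubiquitin ligase, was at 118 and 131 against 76.4 and 51.9 CPM. Phf11d had 37 and 25 reads in Vav1R63W libraries and 0 in both others. The Vav1R63W mean of Phf11d was 10.9 times a floor of 3 reads per library, which allows for counting error only. Phf11d was not called by edgeR (adjusted p = 0.900).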

How the data were processed

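The authors deposited raw read counts per gene for each of the 4 libraries in 3 columns (unstranded, and each strand alone), per the file layout of STAR. Trim Galore and STAR made them from the reads, per the submitters' processing notes, which name build mm9, while the series' design text names Ensembl release 90. The authors' deposited table repeats the unstranded counts, which were equal for all 52636 genes in 4 libraries, and adds results of DESeq2: a linear fold ratio, its log2 value, and p-values. Its 4 normalized columns were not used. Summary lines (multimapping, ambiguous and the like) held 21.1% to 23.1% of reads and were left out. The library kit named in the labels does not mark strand, so antisense overlaps cannot be told apart.

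Unstranded counts were fitted with edgeR 4.0.16 in R 4.3.3 (TMM, filterByExpr with minimum count 10 and total 15, robust quasi-likelihood F test, two-sided, no block), with Benjamini-Hochberg adjustment over all tested genes and a threshold of 0.05. CPM is reads of a gene per megaread of gene reads in the library. Differences of mean log2 CPM use TMM and a prior count of 2. Symbols were matched by gene ID. Coordinates and exon lengths are GENCODE M21 (GRCm38). DESeq2 1.42.0 and limma-voom 3.58.1 were alternatives, beside other scalings, filters, count columns, a replicate block and each library left out. The edgeR step was also run on simulated counts. That outcome is not given here, so the smallest change the test could call is not stated. Interferon response genes given with all 4 values were the 8 with the smallest p and the 8 with the highest CPM. Those without overlap at 10 CPM or more were also given. Others were added after seeing values so that each gene is accounted for. Genes named from the lists of other pathway genes were those with the smallest edgeR p of each list. Dtx3l and Irgm2 were added beyond the planned number. The genes and lists were chosen with earlier results of these data known.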

Additional observations from a re-analysis of the deposited data

How the results depend on the processing

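The edgeR count of 0 called genes was 0 under every other setting run except DESeq2, which called 206, and 0 of the interferon response genes was called under any setting. Their median difference, -0.23, ranged from -0.26 to -0.14 when each library was left out and stayed negative under all settings. With each library left out in turn, 18 of the 29 tested genes kept the sign of their log2 fold change. It turned for Ddx58, Zbp1, Ifit2, Oas3, Isg20, Rsad2, Xaf1, Slfn5, Ifi47, Gbp2 and Gbp3, with ranges of -0.062 to 0.043 for Ifi47, -0.53 to 0.060 for Gbp2, -0.86 to 0.079 for Gbp3 and -0.20 to 0.48 for Zbp1. Ifi47 also turned, to 0.0024, with the first strand column; under the settings that keep all libraries it was the only one to turn of the 19 genes named by rule. With the replicate number as a block 0 genes were called, and 163 had an unadjusted p under 0.05, where 509 did without it. Same-numbered libraries' deviations had a correlation of 0.02 across 10216 genes. A correlation over all genes cannot show whether same-numbered samples were handled together, and the labels give only the number. The number of libraries limits the precision, and at this depth 0 reads allow up to 0.188 to 0.215 CPM, counting error only.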
